A study of Homo sapiens with 12 samples.

Results

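Noncoding intron clusters are stretches of RNA, called as clusters of crosslinked reads for the RNA-binding protein QKI, that lie mostly in introns of transcripts annotated as noncoding. They were taken from the annotated cluster files of the 2 libraries for endogenous QKI: a cluster belonged to the set when it was not mitochondrial and when the class with most of its bases was a distal or a proximal noncoding intron. The set held 31283 of 615972 nuclear clusters, 19842 of 384230 in endogenous library 1 and 11441 of 231742 in endogenous library 2. Clusters of the tagged proteins entered by overlap of at least 1 base on the same strand, since their files carry no transcript class.

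The study measured QKI binding by eCLIP, in which RNA crosslinked to a protein by ultraviolet light (254 nm, 400 mJ/cm2) is immunoprecipitated, sequenced and compared with an input library. The cells are labelled HEK293xT, and the protocol names 293T cells, a line derived from human embryonic kidney. Unmodified cells were precipitated with an antibody to QKI (called endogenous here). Cells transiently transfected 72 hours earlier with a plasmid (10 µg) encoding myc-QKI-5 (called wild type) or for myc-QKI-5 with the substitutions K120A and R124A (called mutant) were precipitated with an antibody to MYC. The transfected cells were not said to lack their own QKI. Each group had 2 libraries with 2 inputs. Nothing in the labels says whether the libraries came from separate cultures, so p-values here measure only the spread between libraries, which may be technical.

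QKI is a STAR-family protein that binds pre-mRNA and mRNA, and its nuclear isoform QKI-5 is known as a regulator of alternative splicing and of circular RNA formation. Long noncoding RNAs are spliced like mRNAs, and their introns can be long and can carry the hairpins of microRNAs. A microRNA host gene is such a transcript, and a microRNA recognises its targets largely through its seed, bases 2 to 8.

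Several small RNA host genes held reproducible QKI peaks, MIR924HG more than any other gene, and the mature microRNAs of 5 of them are shown so that the introns can be recognised by what they carry. Sequences are from RefSeq (GRCh38.p14), 5′ to 3′, with the seed in capitals, and all 7 microRNAs looked for were matched by name. MIR924HG is named for the first, DLEU2 holds the next pair, MIR99AHG holds the miR-99a and let-7c hairpins, and MIR31HG and MIR222HG are named for the last ones.
hsa-miR-924: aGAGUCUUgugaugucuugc
hsa-miR-15a-5p: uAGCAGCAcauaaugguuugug
hsa-miR-16-5p: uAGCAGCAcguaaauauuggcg
hsa-miR-99a-5p: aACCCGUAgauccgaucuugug
hsa-let-7c-5p: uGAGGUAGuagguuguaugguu
hsa-miR-31-5p: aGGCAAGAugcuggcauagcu
hsa-miR-222-3p: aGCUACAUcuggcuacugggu
The microRNAs of DLEU2 share the seed AGCAGCA, and the other 5 have seeds of their own. No QKI peak was placed relative to these hairpins, because the peak coordinates are in hg19.

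Noncoding intron clusters were enriched over input slightly less often than clusters as a whole. A cluster is called enriched here when its log2 fold against input is at least 3 and its −log10 p is at least 3, both as deposited by the authors. In endogenous library 1, 693 noncoding intron clusters were enriched (3.49%, exact 95% interval 3.24 to 3.76), against 4.21% of all nuclear clusters. In endogenous library 2 the count was 566 (4.95%, 4.56 to 5.36), against 5.38% of all nuclear clusters. The mean share was 4.22% ± 1.03 (SD, n = 2). Endogenous library 1 listed 60.7% of its noncoding intron clusters above input and library 2 listed 90.4%. Over the clusters above input alone, 5.75% and 5.47% were enriched, against 7.07% and 6.28% of all nuclear clusters above input, so the class lay below the background in both libraries either way. Intervals cover counting error only.

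The other intron classes had higher shares in the same libraries. Distal introns of coding transcripts reached 4.21% and 5.52%, and proximal introns of coding transcripts 6.22% and 7.36%. Noncoding exons reached 4.57% and 6.14%. Within the noncoding introns, distal ones made up 17280 and 9930 clusters, of which 3.39% and 4.93% were enriched, and proximal ones 2562 and 1511, of which 4.22% and 5.03% were enriched. Proximal coding introns therefore stood above proximal noncoding introns in both libraries with intervals that did not overlap (5.97 to 6.47 against 3.47 to 5.07 in library 1, and 7.03 to 7.70 against 3.98 to 6.26 in library 2). Intervals here and below take clusters as independent, although neighbouring clusters can be pieces of the same bound stretch. Of the proximal noncoding intron clusters, 33.6% and 34.2% also lay in a coding transcript, as did 10 distal ones in each library.

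**Figure D1:**
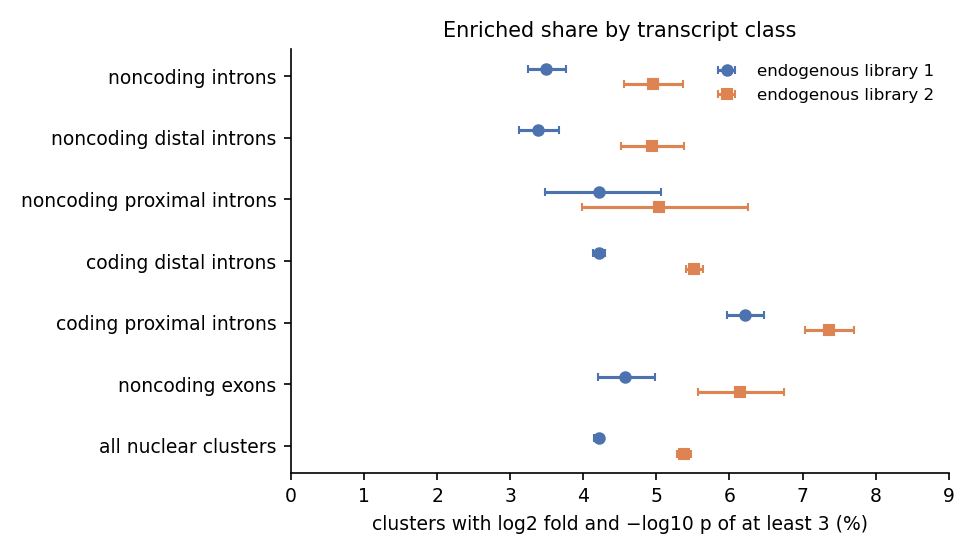
Percentage of clusters enriched over input (x axis) for each transcript class (y axis) in the 2 endogenous libraries, with exact 95% intervals for counting error. Noncoding introns lie below all nuclear clusters in both libraries, at 3.49% and 4.95%, and library 2 lies to the right of library 1 in every class shown.

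The host transcripts were of several kinds. Genes that RefSeq lists as long noncoding RNA genes held 6439 and 3940 of the clusters, of which 4.07% and 5.43% were enriched. Names that RefSeq lists as protein-coding genes or as synonyms of them held 4314 and 2564, with 3.27% and 5.19% enriched. Coding genes can also have noncoding transcripts, and some names of noncoding form, such as HNRNPU-AS1 and RPA3-AS1, fell here as synonyms. Pseudogenes held 1831 and 963, with 2.29% and 3.74% enriched. Clone or lnc- names, which have no RefSeq symbol, held 7041 and 3841, with 3.34% and 4.61% enriched. Intervals of the lncRNA and pseudogene shares did not overlap in library 1 (3.60 to 4.58 against 1.66 to 3.09) and did overlap in library 2 (4.74 to 6.19 against 2.63 to 5.14).

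Cell type markers were looked for among all nuclear clusters. The series' design note speaks of embryonic stem cells in cardiomyocyte differentiation, which the sample labels do not. Of 11 pluripotent stem cell markers, 1 and 0 had a cluster (3 and 0 clusters in the libraries), with POU5F1, NANOG and SOX2 at 0. Of 8 cardiomyocyte markers, 3 and 4 had one (100 and 50 clusters, most of them in RYR2 and ACTN2), with MYH6, MYH7 and TNNT2 at 0. Of 8 markers of the kidney line, 6 and 4 had one (118 and 67 clusters, of which EYA1 gave 86 and 56), with PAX8 and LHX1 at 0 in both libraries and NEFL and INA at 0 in library 2. Cluster counts depend on gene length as well as RNA level.

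The authors' reproducible peak list for endogenous QKI held 552 noncoding intron peaks among 12363 nuclear peaks (4.46%). Their median width was 110 bases (range 2 to 218), and 16 were under 20 bases. The median of their mean log2 fold was 4.11 and the highest was 8.41. Many peaks were pieces of a longer bound stretch: peaks abut without overlapping, and joining those within 50 bases left 424 sites, of which 67 held more than 1 peak and 1 held 15. Because the list keeps peaks that were high in both endogenous libraries, endogenous values at these peaks are a description. A peak took the best overlapping cluster of each library, so neighbouring peaks can share a value.

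The strongest peak lay in AC009262.2, an uncharacterised transcript known by its clone name, at chr7:34293164-34293265 on the plus strand. The endogenous libraries gave log2 folds of 9.10 and 7.72, wild type gave 8.18 and 9.30 and mutant library 1 gave 1.48, with no cluster listed in mutant library 2. PURPL, a long noncoding RNA induced by p53, had 7.29 and 7.21, then 6.72 and 5.87 in wild type, and none in the mutant libraries (chr5:27474920-27475078, plus strand). For both genes the wild type libraries lay near the endogenous ones, and the mutant libraries lay far below or listed nothing.

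EGFEM1P, a pseudogene, had endogenous log2 folds of 7.12 and 6.84 and wild type ones of 4.27 and 2.74, with no mutant cluster (chr3:168531222-168531370, plus strand). RP11-29G8.3 had 6.91 and 6.88, then 3.32 and 3.99 in wild type and 0.19 in mutant library 1 (chr13:76185756-76185880, plus strand). ARHGAP11B, a human-specific partial gene copy, had 6.08 and 6.97, then 3.76 and 2.73 in wild type and no mutant cluster (chr15:30944054-30944134, plus strand). At these 3 peaks every wild type value lay below every endogenous value.

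FAM157A, a long noncoding RNA gene with near copies elsewhere, had 6.62 and 7.02 in the endogenous libraries, 4.80 and 4.28 in wild type and 2.11 in mutant library 2 (chr3:197896016-197896148, plus strand). lnc-USP6-2 had 6.78 and 6.65, then 5.71 and 7.36 in wild type and 3.56 in mutant library 2 (chr17:5143805-5143884, plus strand). That mutant cluster had a −log10 p of 2.59 and so was not enriched. GS1-259H13.10 had 6.46 and 6.96, then 5.17 and 4.73 in wild type, and no mutant cluster (chr7:99194526-99194726, plus strand).

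RP11-640M9.2 had 7.31 and 5.77, then 5.97 and 7.24 in wild type and 0.59 in mutant library 2 (chr1:144616485-144616605, plus strand). SPPL2B, which encodes an intramembrane protease, had 6.30 and 6.62, and 6.66 and 7.93 in wild type, with no mutant cluster (chr19:2345359-2345558, plus strand). SPPL2B was the only one of these 10 peaks with both wild type values above both endogenous values. Reads from FAM157A, ARHGAP11B and RP11-640M9.2 may come from near-identical copies, and the handling of such reads is not stated in the labels.

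**Figure D2:**
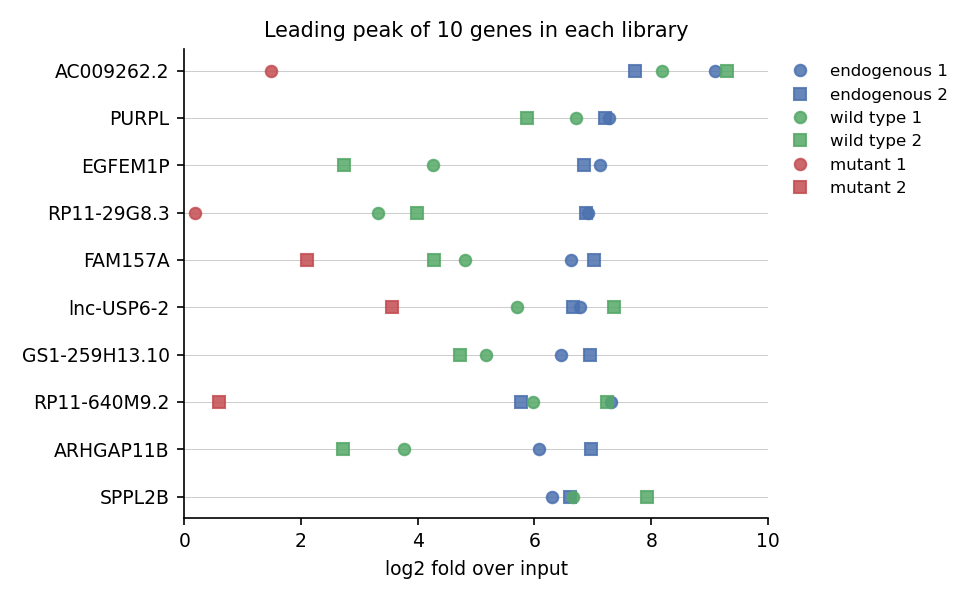
Log2 fold over input (x axis) of the leading noncoding intron peak of the 10 genes with the highest mean endogenous value, one point per library and no point where no cluster was listed. Mutant points are at or below 3.56 and most are missing, while wild type points reach 9.30 at AC009262.2.

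Peaks were spread over 235 gene labels, 126 of which had a single peak, while the 4 genes with most peaks held 79 (14.3%). MIR924HG, the host gene of miR-924, led with 32 peaks at 26 sites over 481 kb of chromosome 18. Of its 530 and 500 clusters in the endogenous libraries, 38 and 36 were enriched (7.17% and 7.20%). At its peaks the lowest, median and highest log2 fold were 2.40, 4.10 and 5.72 in endogenous library 1 and 2.33, 3.96 and 6.47 in library 2. The wild type values were lower, 0.58, 2.44 and 3.98 over 28 listed peaks in library 1 and 0.02, 1.85 and 4.22 over 25 in library 2. Mutant library 1 listed none of these peaks and mutant library 2 listed 2, at 0.11 and 0.47.

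The next genes had a different layout. AC009262.2 had 19 peaks within 1.11 kb, which joined into 2 sites, and 64.7% and 65.4% of its clusters were enriched in the endogenous libraries. Its median log2 folds were 5.62 and 5.68 in the endogenous libraries and 5.85 and 5.81 in wild type, over 17 and 11 listed peaks. FAM157A had 14 peaks within 1.38 kb, also 2 sites, with medians of 5.78 and 6.43 against 4.94 and 5.32 in wild type. In MIR924HG, by contrast, the peaks were scattered along the gene.

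ENTPD1-AS1, antisense to the gene for the ectonucleotidase CD39, had 14 endogenous peaks over 153 kb of chromosome 10 and no wild type reproducible peak. Its median log2 folds were 4.15 and 4.28 in the endogenous libraries and 2.06 and 2.59 in wild type, with 0 of 14 peaks enriched in either wild type library. DLEU2, the host of miR-15a and miR-16, had 6 endogenous and 5 wild type reproducible peaks, but only 1 of the 5 overlapped an endogenous one and 4 lay elsewhere in the gene. Its 3 peaks on the 3′ side were listed in both wild type libraries at 1.78 and 2.17, 3.07 and 2.44, and 3.76 and 3.14, and no DLEU2 peak was listed in a mutant library. DLEU1, its neighbour on the opposite strand, had 8 endogenous and 2 wild type peaks. The PRR4/TAS2R14 locus had 10 peaks over 205 kb, with wild type enriched at 0 and 2 of them, and BBOX1-AS1 had 8, with wild type enriched at 5 and 0.

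**Figure D3:**
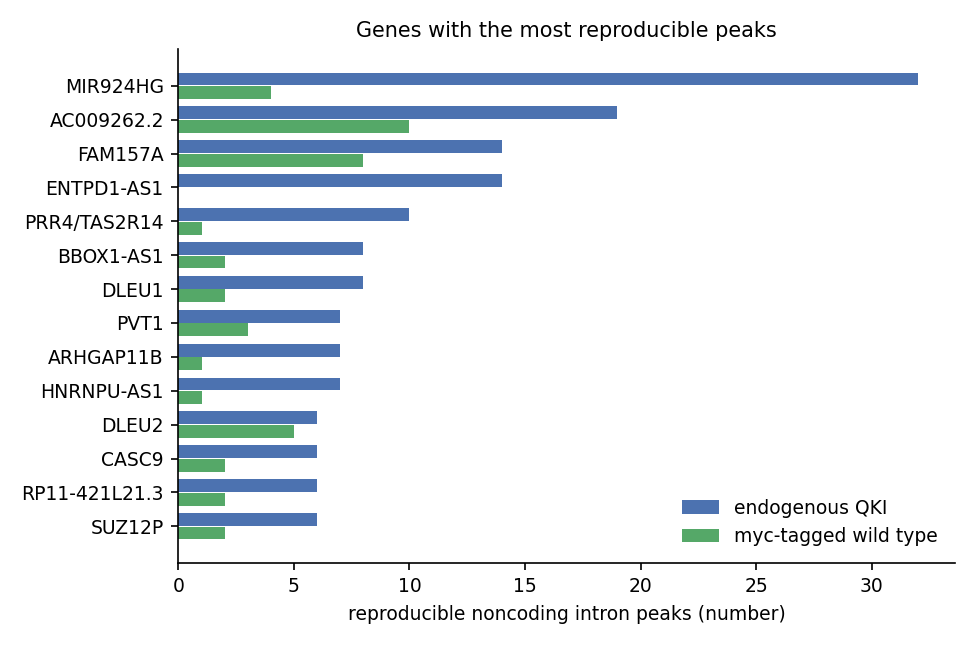
Number of reproducible noncoding intron peaks (x axis) in the genes with the most endogenous peaks (y axis), for endogenous QKI and for myc-tagged wild type QKI. MIR924HG leads for endogenous QKI with 32 peaks against 4 for wild type, ENTPD1-AS1 has 14 against 0, and DLEU2 has 6 against 5, of which 1 is shared.

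Gene lists differed in how many of their genes held a reproducible endogenous peak. Over all 2958 gene names with a noncoding intron cluster, 242 did (8.18%). Among small RNA host genes it was 6 of 21 (28.6%): MIR924HG, DLEU2, MIR99AHG (4 peaks), MIR4713HG (4 peaks), MIR31HG (2 peaks) and MIR222HG (1 peak). Antisense, intronic and overlapping genes gave 37 of 276 (13.4%), led by ENTPD1-AS1, BBOX1-AS1 (8 peaks), HNRNPU-AS1 (7 peaks) and TTN-AS1 (6 peaks). The list goes by name, and RefSeq gives HNRNPU-AS1 as a synonym of the coding gene HNRNPU. LINC genes gave 18 of 181 (9.94%), led by LINC00630 and LINC00894 with 5 peaks each. Pseudogenes gave 17 of 169 (10.1%), led by SUZ12P and NKAPP1 with 6 peaks each and EGFEM1P with 4. Clone names gave 65 of 946 (6.87%) and lnc- names 26 of 649 (4.01%). The number of clusters differed much between genes, and MIR924HG alone gave 530 of the 1125 host gene clusters of library 1. Counted by cluster, the order of the lists changed. Of clusters under lnc- names 5.15% and 7.16% were enriched, against 3.50% and 4.90% under all names. Small RNA host genes gave 5.07% and 6.19%, and the antisense list 4.01% and 5.21%. LINC genes gave 2.31% and 4.87%, pseudogenes 2.67% and 4.18%, and clone names 3.08% and 4.15%.

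Well known long noncoding RNAs were present in part. Of 18 looked for, 7 had a noncoding intron cluster and 3 had a reproducible peak. PVT1, which lies beside MYC, had 7 endogenous and 3 wild type peaks. FTX, from the X-inactivation centre, had 5 and 2, and MIR99AHG had 4 and 0. At its leading peak FTX had log2 folds of 5.46 and 4.96 in the endogenous libraries and 0.63 and 2.25 in wild type. Over all its peaks the FTX medians were 4.06 and 4.15 in the endogenous libraries and 4.02 and 3.96 in wild type, with 3 peaks enriched in each wild type library. JPX, LINC-PINT, OIP5-AS1 and HOTAIR had clusters but no enriched one in either endogenous library. The other 11 had no cluster of this class, among them MALAT1, NEAT1, MEG3, MIAT, RMST, CASC15 and MIR100HG. A transcript without an annotated intron cannot have such a cluster, and exon clusters were not counted here. Having none is therefore no measure of QKI binding to the RNA.

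The wild type and mutant proteins separated on noncoding introns. Over all myc clusters that overlapped a noncoding intron cluster, 216 of 4249 and 233 of 4546 were enriched in wild type (5.08% and 5.13%), against 4.99% and 4.95% of those on any endogenous cluster. In the mutant 11 of 2229 and 19 of 2863 were (0.493% and 0.664%), against 0.123% and 0.452%. The 11 of mutant library 1 were 5 in ANKRD30BL, 3 in LINC01643, 2 in LINC00471 and 1 in RNU6-671P. Of the 19 of mutant library 2, 6 were in ANKRD30BL. These mutant shares thus rest in large part on a few places.

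At the 552 reproducible peaks the separation was wider. Wild type libraries listed a cluster at 476 and 456 of the 552 peaks (86.2% and 82.6%), and mutant libraries at 50 and 69 (9.06% and 12.5%). Over all nuclear reproducible peaks these shares were close, 84.8% and 81.3% in wild type and 9.90% and 10.0% in the mutant. Enriched clusters stood at 180 and 153 peaks in wild type (32.6% and 27.7%), where over all nuclear reproducible peaks the shares were 28.2% and 25.4%. In the mutant they stood at 7 and 4 peaks (1.27% and 0.725%), where the background was 0.210% and 0.235%. The mean shares were 30.2% ± 3.46 (SD, n = 2) and 0.996% ± 0.384 (SD, n = 2). The lowest wild type share exceeded the highest mutant share. The difference was 29.2 percentage points (two-sided exact permutation p = 0.333, the smallest that 2 libraries against 2 can give). With peaks within 50 bases joined into 424 sites, wild type was enriched at 28.5% and 24.3%. Those values are close to the shares over all nuclear peaks, which were not joined. Other shares of peaks given here and below count unjoined peaks unless stated.

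Levels of the listed clusters differed in the same way. The median log2 fold at the listed peaks was 2.67 and 2.59 for the wild type libraries and 1.06 and 0.84 for the mutant ones. The group means were 2.63 ± 0.06 and 0.95 ± 0.15 (SD, n = 2), a difference of 1.68 (exact permutation p = 0.333). The mutant medians rest on 50 and 69 peaks, and with clusters of a −log10 p below 3 left out the order turned, to 3.74 in wild type and 5.00 in the mutant, with 8 and 5 mutant peaks left. At 122 peaks (22.1%) both wild type libraries were enriched, against 18.5% over all nuclear peaks, and at 95 of them (77.9%) neither mutant library listed a cluster, against 83.3% over all nuclear peaks. Only 13 peaks were listed in all 4 myc libraries. Both wild type values lay above both mutant values at 5 of these 13, where the share over all nuclear peaks was 63.7%, and the libraries overlapped at the other 8. LINC00471 and LINC01643 gave 3 of the 13 peaks each, all among these 8. The 3 peaks of each gene were pieces that shared their mutant values, so the 13 are not separate sites.

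**Figure D4:**
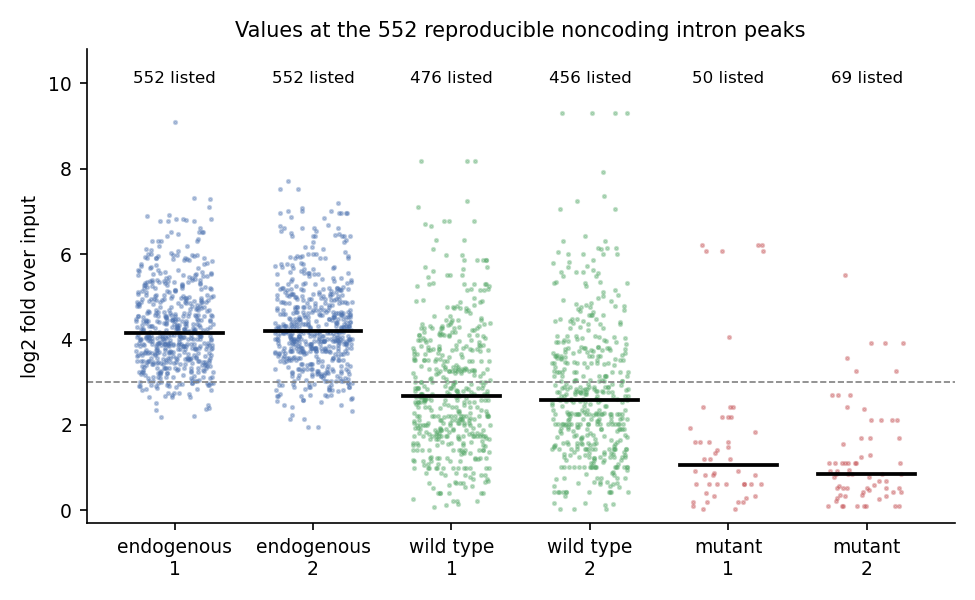
Log2 fold over input (y axis) at the 552 reproducible noncoding intron peaks in each of the 6 libraries (x axis). Points are peaks with a listed cluster, bars are medians, and the dashed line is the threshold of 3. Endogenous medians are 4.16 and 4.20, wild type medians 2.67 and 2.59, and mutant medians 1.06 and 0.84 over 50 and 69 listed peaks.

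The mutant protein was enriched at noncoding intron peaks of 3 genes. At least 1 mutant library was enriched at 7 peaks, against 0.315% of all nuclear peaks, and these 7 were pieces of 2 to 29 bases: 3 in LINC00471, 3 in LINC01643 and 1 in RNU6-671P. Once peaks within 50 bases were joined they counted as 3 sites in mutant library 1 and 2 in mutant library 2. They make up the whole of the mutant share at the 552 peaks, so its height over the background rests on these 3 places.

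RNU6-671P is a pseudogene of the U6 spliceosomal RNA. Its 4-base intron-class piece (chr12:45948442-45948445, minus strand) is covered by wild type and mutant reproducible peaks whose best matching endogenous cluster was classed as noncoding exon. The piece had a log2 fold of 6.43 and 5.94 in the endogenous libraries, 6.12 and 5.79 in wild type and 4.05 and 5.51 in the mutant. LINC00471 (chr2:232376593-232376621, minus strand) had 6.83 and 5.16, then 6.78 and 6.01 in wild type, and 6.21 and 3.91 in the mutant. LINC01643 (chr22:34558603-34558619, plus strand) had 4.44 and 6.97, then 5.52 and 6.14 in wild type. It had 6.08 and 2.69 in the mutant, where the second value was not enriched. In LINC00471 and LINC01643 the wild type and mutant libraries overlapped, while at RNU6-671P both wild type values lay above both mutant values. All 6 libraries held a cluster at each of the 3 places. U6 sequences occur in many copies, so the origin of the RNU6-671P reads is uncertain.

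Of 55 nuclear peaks in the mutant reproducible list, 9 overlapped a noncoding intron cluster (16.4%), against 4.85% of 3630 in the wild type list. In the endogenous list 4.46% of 12363 peaks were of this class. For 8 of the 9 mutant peaks (14.5% of the 55) the best matching endogenous cluster was also of this class. For RNU6-671P it was a noncoding exon cluster. Besides 2 in LINC00471 and 1 in RNU6-671P, 6 were in ANKRD30BL, at chr2:133012238-133013177 on the minus strand, away from any endogenous reproducible peak. At the leading ANKRD30BL peak the mutant log2 folds were 3.16 and 3.98, the wild type ones 3.87 and 4.32, and the endogenous ones 0.76 and 2.37. At chr2:133012266-133012332 it was 3.17 and 3.54 in the mutant against 0.76 and 2.21 in wild type. Both mutant values were higher there, but limma's test of the merged region gave an adjusted p of 0.293 (difference −1.87, SE 0.60). Both mutant values also lay above both wild type values at chr2:133012238-133012265 (2.89 and 3.52 against 0.36 and 2.19). The same held at chr2:133013142-133013177 (4.10 and 2.31 against 1.73 and 1.95). At the remaining ANKRD30BL peaks the wild type and mutant values overlapped.

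The wild type protein shared most of its own noncoding intron peaks with the endogenous protein. Of 176 wild type reproducible peaks on these clusters, 129 overlapped an endogenous reproducible peak (73.3%, exact 95% interval 66.1 to 79.7), against 70.1% of the 3524 nuclear wild type peaks that overlap any endogenous cluster. Seen from the endogenous list, 153 of its 552 peaks met a wild type peak (27.7%, 24.0 to 31.7), against 24.0% over all nuclear peaks. The first background lay inside its interval, and the second lay at the lower edge of its own, just outside it. The other 47 wild type peaks had median endogenous log2 folds of 2.32 and 2.37. All 176 overlap an endogenous cluster by the way they were chosen.

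Single regions were tested with limma on the log2 folds, fitted over all merged regions with a cluster in all 4 libraries. For wild type against mutant, 5346 regions could be tested and 153 of them touched noncoding intron clusters. With the threshold set at an adjusted p (Benjamini-Hochberg) of 0.05, 1 of these was higher in wild type, against 0.542% of all regions, and 0 were lower, against 0.0187%. At an unadjusted p under 0.05 limma gave 10 higher (6.54%) and 7 lower (4.58%), against 4.75% and 7.33% of all regions. The median difference was −0.18 over the 153 regions and −0.26 over all 5346. Of the 153, 12 lay on an endogenous reproducible peak, with a median difference of 1.69 and 11 of them positive. The other 141 had a median of −0.28, with 46 positive. A tested region needs a cluster in both mutant libraries, so the sites that the mutant lists lack are not in it.

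The region past the threshold lay in HNRNPU-AS1, at chr1:245013411-245013847 on the minus strand, over an endogenous reproducible peak. HNRNPU encodes a nuclear RNA-binding protein. The wild type log2 folds were 3.78 and 3.62 and the mutant ones 0.61 and 0.11, a difference of 3.35 (SE 0.49, limma adjusted p = 0.0318). Mutant library 2 listed no cluster at the 7 reproducible peaks of this gene, so its value comes from outside them within the merged region. The call was lost without mutant library 1 and without mutant library 2, where 0 noncoding intron regions passed. LINC00632, the precursor transcript of the circular RNA CDR1as, came next, with 3.22 and 4.01 against 0.12 and 1.11 (SE of the difference 0.57, limma adjusted p = 0.0848). It passed once each library was centred on its median (adjusted p = 0.0207), as did PTPRG-AS1 (0.0372) and RP11-1277A3.2 (0.0458).

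For endogenous against wild type QKI, limma tested 32592 regions, 1512 of them on noncoding intron clusters. In this comparison the antibody, the tag and the transfection all change with the group and cannot be told apart. Higher for endogenous QKI were 92 regions (6.08%), against 5.71% of all regions, and lower were 10 (0.661%), against 0.810%. The median difference was 0.56 over the noncoding intron regions and 0.48 over all regions. Wild type files list only clusters above input while endogenous files list those below it too. With each library centred on its median, 11 were higher and 16 lower, so the split moved from 90.2% to 40.7% higher. Over all regions the split moved from 87.6% to 42.2% higher. All of the 10 lower regions and 11 of the 92 higher ones passed both ways. Without wild type library 2, 1 region was higher and 0 lower. Without each of the other libraries in turn, 21 to 39 were higher and 1 or 2 lower.

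Of the 1512 tested regions 360 (23.8%) lay on an endogenous reproducible peak, as did 80 of the 92 higher regions and 0 of the 10 lower ones. That list was itself chosen for high endogenous values, so these counts are a description. The higher regions belonged to 79 gene labels, with 6 regions in MIR924HG and 2 each in DLEU1, ENTPD1-AS1, PVT1 and USP2-AS1, among others. The greatest difference was at RP11-389O22.1 (chr1:113554019-113554156, plus strand), with log2 folds of 4.08 and 5.18 for endogenous QKI and 0.59 and 0.82 for wild type (difference 3.93, SE 0.68, limma adjusted p = 0.0119). lnc-FERMT2-4 had 5.10 and 5.77 against 2.15 and 1.02 (3.85, SE 0.69, limma adjusted p = 0.0141). SLC5A4-AS1, antisense to a sodium/glucose cotransporter family gene, had 5.99 and 5.92 against 2.66 and 1.64 (3.80, SE 0.67, limma adjusted p = 0.0131).

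FTX, LINC00894, C2orf88, EGFEM1P and DLEU1 followed, with differences of 3.77, 3.63, 3.55, 3.47 and 3.47. In all 5 the endogenous values lay above the wild type ones without overlap. Of these, FTX, LINC00894 and DLEU1 also passed after centring, while EGFEM1P and C2orf88 did not (adjusted p = 0.0503 and 0.0558).

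Among the 10 lower regions, MIR2052HG, another microRNA host gene, had 1.06 and 0.56 for endogenous QKI and 3.66 and 4.39 for wild type (difference −3.21, SE 0.67, limma adjusted p = 0.0180). lnc-CDK12-1 had 1.06 and 1.15 against 3.58 and 4.19 (−2.78, SE 0.66, limma adjusted p = 0.0273). C2orf69 had 1.84 and 2.89 against 4.80 and 5.35 (−2.71, SE 0.68, limma adjusted p = 0.0328). lnc-USP33-1, GUSBP11, ANKRD30BL, GS1-124K5.12 and lnc-MYOZ1-1 had differences between −2.65 and −2.42. The last pair of regions lay in DONSON, a gene for a DNA replication fork protein, with differences of −2.39 and −2.33. At ANKRD30BL this is the leading region of the mutant list above.

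**Figure D5:**
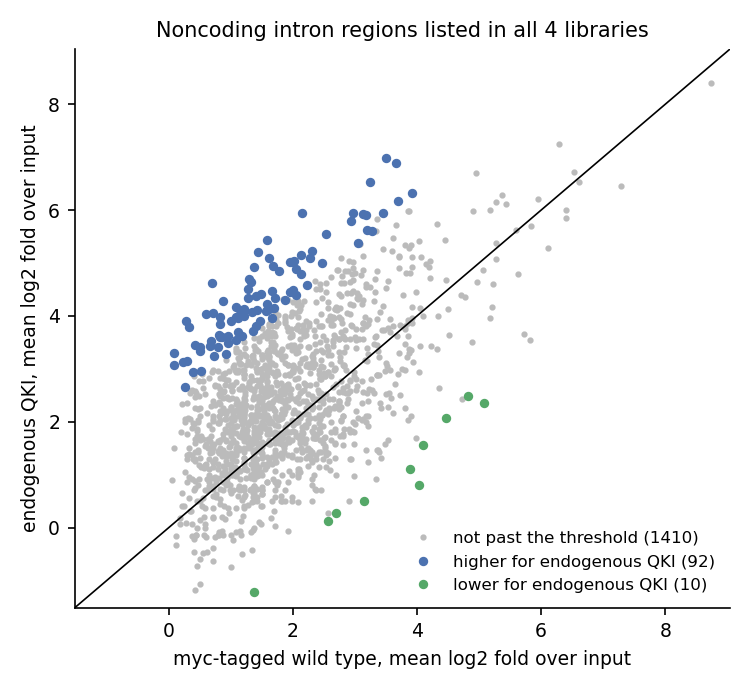
Mean log2 fold over input for endogenous QKI (y axis) against myc-tagged wild type QKI (x axis) at the 1512 noncoding intron regions with a cluster in all 4 libraries, each point a region and the line marking equal values. The 92 regions past limma's threshold above the line and the 10 below it are coloured, and the cloud lies above the line, with a median difference of 0.56.

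Agreement between the endogenous libraries was like that of other classes. Of the enriched noncoding intron clusters, 68.7% of library 1 and 77.2% of library 2 overlapped an enriched cluster of the other library, against 66.9% and 77.4% of all enriched nuclear clusters. Across the 552 peaks the log2 folds of the libraries had a Pearson correlation of 0.562, given as a description over peaks that share the libraries and were chosen for height in both. A neighbouring reproducible peak lay within 1000 bases of 45.7% of them, against 46.4% of all nuclear peaks.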

How the data were processed

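eCLIP libraries were processed with UMI-tools, cutadapt, STAR and SAMtools against hg19, per the submitters' processing notes. The sources used here give neither the peak caller nor the read depth per library, so no floor for a missing cluster can be set. Each deposited cluster has the authors' log2 fold against input and their −log10 p (capped at 400), and the reproducible lists and those of the tagged proteins also carry a browser score, which was not used for any result. Endogenous lists keep clusters below input, while the deposited lists of the tagged proteins hold only those with a fold above input.

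Overlaps were taken on the same strand (at least 1 base) with pandas 2.3.3 and checked against bedtools. Names spread over more than 2.5 Mb (80 names, carried by 37.6% of the 31283 clusters) were not used, and kinds of host came from RefSeq. Regions were tested with limma 3.58.1 (lmFit and eBayes) after clusters sharing a base were merged and, within a library, the cluster with the top −log10 p stood for the region. Adjusted p-values use Benjamini-Hochberg over all regions. The fit was tested on simulated data. Correlations of the deviations of same-numbered libraries were −0.04 for wild type and mutant and 0.01 for endogenous and wild type, so replicate numbers were not taken to pair libraries. The members and lists were chosen with earlier results of these data known. Genes named are those of the 10 highest endogenous peaks, the 10 with most peaks, up to 8 regions per direction in each limma test, all mutant reproducible peaks and up to 4 per gene list. Genes that passed only under an alternative, and the remaining small RNA host genes and lower regions, were chosen after their values were seen. Motif searches were not made.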

Additional observations from a re-analysis of the deposited data

How the results depend on the processing

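The enriched share in the endogenous libraries was 4.22%. It moved to 5.25% with the fold threshold at 2, 2.35% at 4, 2.83% with the −log10 p threshold at 5 and 5.61% over clusters above input, and ranged from 3.49% to 4.95% when 1 library was left out. The difference of 29.2 points between wild type and mutant moved to 38.6 with the fold threshold at 2, 16.1 at 4, 24.4 with the −log10 p threshold at 5 and 0.767 over all 25369 loci of the class, and ranged from 26.7 to 31.6 when 1 library was left out. The difference in median log2 fold (1.68) was 2.25 with missing clusters set to 0 and −1.25 over clusters with a −log10 p of at least 3, where 8 and 5 mutant peaks remain, and ranged from 1.57 to 1.79 when 1 library was left out. Of these 8 and 5 mutant peaks, 7 and 4 were short pieces in 3 genes. With peaks within 50 bases joined, the difference in enriched share between wild type and mutant was 25.8 points. The share of wild type peaks on endogenous ones (73.3%) stayed within its interval under all 3 alternatives.

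Wild type against mutant, 1 region passed in limma's test. It was 4 with centring, 4 over the 48 regions with a −log10 p of at least 3, 449 (441 higher, 8 lower) of 3814 with missing clusters set to 0, 6 of 94 with the spread of all 6 libraries, 2 with touching clusters merged (chosen after seeing the data), and 0 to 3 when 1 library was left out; 1 region passed with the replicate block. With missing clusters set to 0, 11.6% of the 3814 were higher and 0.210% lower, against 6.53% and 0.563% of all regions. A region listed only in wild type then has a mutant spread of 0. Shares higher were 2.61% with centring, 8.33% with the −log10 p filter, 6.38% with all 6 libraries and 1.25% with touching clusters merged. Over all regions these were 1.16%, 5.11%, 5.57% and 0.567%. Endogenous against wild type, 102 passed. With the replicate block it was 208 (187 higher, 21 lower), with centring 27 (11 higher, 16 lower), with the −log10 p filter 179, and from 1 to 41 when 1 library was left out. The replicate block gave 12.4% higher and 1.39% lower, against 10.9% and 1.94% of all regions. Centring gave 0.728% and 1.06%, against 0.893% and 1.22%. The −log10 p filter gave 24.9% and 2.79%, against 21.9% and 2.24%. The labels share replicate numbers only, and the cause of these moves was not tested. Assigning regions by longest overlap, also chosen after seeing the data, gave 1 and 99. Motif alternatives were not run, since no genome of the build was used. Read depth is unknown, so a missing cluster cannot be told apart from one too shallow to call.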
